A study of Arabidopsis thaliana with 3 samples.

Results

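Annotated pseudogenes around the centromeres of Arabidopsis thaliana were lower in leaves with a chimeric MYB23 repressor than in wild-type leaves, by a small amount in the median. The set holds 701 genes of the 16830 genes that features of the array could be paired with. A gene was taken when the RefSeq table of assembly TAIR10.1 gives it the biotype pseudogene and its start lies at 12 to 18 Mb on chromosome 1, 1 to 7 Mb on chromosome 2, 11 to 17 Mb on chromosome 3, 1 to 7 Mb on chromosome 4 or 9 to 15 Mb on chromosome 5. The rule uses no measured value. The windows took in 78.9% of all pseudogenes paired with a feature, whereas 1903 protein-coding genes lay inside them and 13958 outside. The array covers the windows thinly, since 701 is 21.3% of the 3290 pseudogenes that the table lists there.

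Total RNA of rosette leaves was hybridised to 3 one-colour arrays, all from plants aged 2 weeks of the Col-0 accession. The tested plants carried AtMYB23SRDX, the trichome regulator MYB23 joined to the SRDX repression domain, under the 35S promoter, which is active in most plant tissues. They were numbered 41 and 45, are called line 41 and line 45 here, and had 1 array each. Wild-type plants had 1 array, and nothing in the labels says how many plants an RNA came from.

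The chromatin that flanks plant centromeres is packed with transposable elements and gene remnants, and it is normally kept silent. DNA methylation, dimethylation of lysine on the histone H3 tail and small interfering RNAs maintain that silence, and loss of the remodelling factor DDM1 or the methyltransferase MET1 is known to release transcripts from it. RefSeq files many genes of transposable elements under the biotype pseudogene. All 701 genes here carry a locus number as their only symbol, and the tables used give no element family, so none is named. Features for repeated sequences can share signal between copies, and probe sequences were not analysed here.

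The columns were alike in their middle and unlike at their upper end. The median of all features was 5.89 in line 41, 5.91 in line 45 and 5.96 in wild type on the log2 scale, while the 99th percentile was 10.63 and 10.54 in the lines and 9.62 in wild type. Of 14 leaf markers 4 were on the array, and all lay above the median of all features in each sample. They read between 9.85 and 14.13 in the lines and between 7.19 and 11.9 in wild type. All 4 were higher in both lines than in wild type. RCA read 14.13 and 13.75 in the lines, against 11.9 in wild type, and PRK 10.31 and 9.85, against 7.19. Of 14 flower and pollen markers 3 were on the array, with medians of 5.51 in line 41, 5.84 in line 45 and 6.59 in wild type, and the only root marker, EXPA7, lay at 4.96, 5.12 and 5.37. No seed marker of the 11 fixed was paired with a feature. The 3 flower and pollen markers ran from 4.81 to 6.96 in the lines and from 5.12 to 7.22 in wild type, and each was lower in both lines than in wild type, as were most of the pseudogenes described here. The root marker EXPA7 was lower in both lines too. VGD1, a flower and pollen marker at 5.05 and 4.81 in the lines and 5.12 in wild type, and EXPA7 lay under the median of all features on each array. The flower and pollen marker AMS, at 5.51 and 5.84, lay under it in the lines. The part of the leaf, the flower and pollen, and the root markers in the results was not tested.

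Most of the pericentromeric pseudogenes gave low signal, and more of it in wild type. Their median was 5.38 in line 41 and 5.41 in line 45, against 5.76 in wild type, and their upper quartile was 6.16 and 6.32 in the lines against 6.60 in wild type. Features whose mean over the arrays ranked under the 40th percentile, at 5.64, were treated as dim. Values no lower than 5.64 were found for 290 genes (41.4%) in line 41 and 292 (41.7%) in line 45, against 379 (54.1%) in wild type. Among pseudogenes of the arms these shares were 35.8% in line 41 and 35.3% in line 45, against 47.6% in wild type. Coding genes of the windows had 51.7% and 52.9% in the lines, against 58.2% in wild type. Among coding genes of the arms these shares were 57.0% and 57.7% in the lines, against 61.2% in wild type. At the other end, 79 genes (11.3%) in line 41 and 91 (13.0%) in line 45 lay at or under the floor, against 43 (6.13%) in wild type. The floor was 4.68, the 5th percentile of all values. Over all features these shares were 5.76% and 5.45% in the lines and 3.8% in wild type, so wild type had fewer such values across the array as well. A value of 8 or more was reached by 33 and 43 of the genes in the lines and by 50 in wild type, and the share over all features was not computed for this level. No exact permutation of 3 arrays, 2 against 1, can give a p under 0.333, so these levels carry no test. In RNA of a whole leaf, fewer cells that transcribe a locus and less RNA per cell cannot be told apart.

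**Figure D1:**
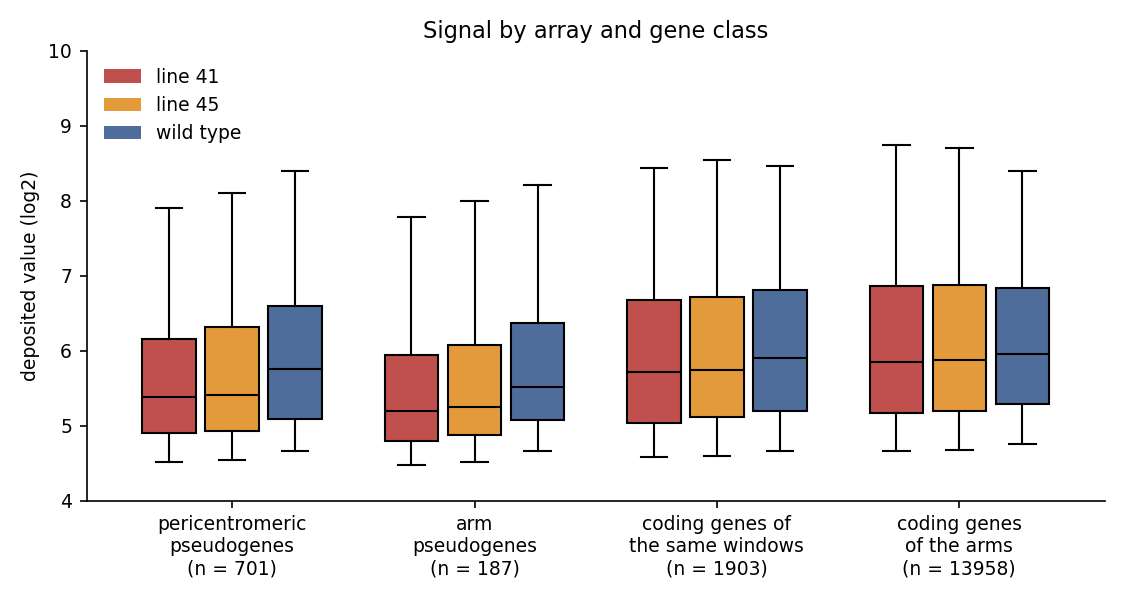
Deposited values, read as log2, of 4 gene classes on each array. Boxes run from the 25th to the 75th percentile, with a line at the median and whiskers at the 5th and 95th percentiles over genes. In the pericentromeric pseudogenes the medians of line 41 and line 45 are 5.38 and 5.41 and that of wild type is 5.76, and the arm pseudogenes are spaced alike.

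Taken gene by gene, with values under the floor raised to it, the median log2 change from wild type was -0.21 in line 41 and -0.18 in line 45, and -0.20 for the mean of the lines. Over all 28124 genes and unnamed features the median was -0.06. Of the 701 genes 479 (68.3%) were lower in both lines, 69 (9.84%) higher in both, and 153 split or tied, while over all features 47.7% were lower and 31.5% higher in both. Both lines share the single wild-type array, so anything particular to that array enters both changes. The middle range was narrow, from -0.44 at the lower quartile to -0.03 at the upper. The spread over all genes of the set ran from -1.82 to 1.16.

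The lines were then compared with wild type in limma, a linear model fitted across all features that passed the dim level by their mean over the arrays, with Benjamini-Hochberg adjustment over all 16905 of them. Of the pericentromeric pseudogenes 320 were tested. At the threshold of 0.05 on the adjusted p, 58 fell, or 18.1% of those tested, where 7.28% of all tested features fell. Only 2 rose, or 0.625%, where 14.6% of all tested features rose. The 58 falls ranged from -0.65 to -1.82 with a median of -0.92 and standard errors of 0.19 to 0.27. Among the 320, 287 lay above the dim level in wild type and in the mean of the lines, and 45 of the 58 falls are among these. A further 30 lay above the dim level in wild type with the mean of the lines under it, and 13 of the falls are among them. They had to be lower in the lines to be counted that way. With dim genes kept in the fit and the floor retained, limma made no call in any of the 28124 genes and features. In that fit 181 genes of the set were lower at an unadjusted p under 0.05. Of all 28124, 7167 had such a p in either direction, and how many of these were lower was not computed. In the fit with the dim filter, 101 of the 320 were lower at an unadjusted p under 0.05, where 2607 of all 16905 were. With neither filter nor floor limma called 96 of the 701 lower (13.7%), where 6.73% of all features were, and 53 of these were among the 58. After quantile normalization 96 of 321 fell (29.9%), where 15.8% of all tested features did. In the other direction, AT2G12240, AT4G04170 and AT4G04280 lay above the dim level in the mean of the lines and under it in wild type, and none of these was called.

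By size alone, with no test, 12 of the 320 were at least 2-fold lower in both lines, or 3.75%, where 1.44% of all tested features were. For pseudogenes of the arms this share was higher, at 6.94% (5 of 72 tested), and for coding genes of the windows it was 2.62% (27 of 1031). The gene AT2G07080 alone was at least 2-fold higher in both, against 9.76% of all tested features. Line by line, 25 genes (7.81%) were at least 2-fold lower in line 41, where the share of all tested features was 3.27%, and 19 (5.94%) in line 45, where it was 2.33%.

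Pseudogenes outside the windows fell at a like rate. Of the 187 pseudogenes on the chromosome arms 72 were tested, and 13 of them fell, which is again 18.1%. By limma none of these rose, and 1 was higher at an unadjusted p under 0.05. Their median change, over all 187, was -0.23 in line 41, -0.19 in line 45 and -0.21 for the mean, and 138 (73.8%) were lower in both lines. At matched signal, that is within 10 equal bins of all features ranked by their mean over the arrays, the pericentromeric pseudogenes differed from the arm pseudogenes by -0.01 (0.04 in line 41 and -0.02 in line 45), and they were the lower class in 6 of 10 bins. That difference is smaller than the gap between the lines. The falls are therefore not described here as particular to the pericentromere.

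Protein-coding genes in the same windows moved in both directions. Of 1031 tested, 107 (10.4%) fell and 91 (8.83%) rose, and over all 1903 the median change was -0.11. At matched signal the pseudogenes lay 0.11 below these coding genes, as a weighted mean over bins of -0.11 (-0.10 in line 41 and -0.11 in line 45), and were the lower class in 9 of 10 bins. Against coding genes on the arms, of which 581 (7.07%) of 8215 fell and 983 rose, the difference was -0.17. The gap was widest in the brightest bin, where the median change was -0.46 for 42 pericentromeric pseudogenes, -0.34 for 9 arm pseudogenes, -0.10 for 147 coding genes of the windows and 0.20 for 1286 coding genes of the arms. In the dimmest bin, where values sit near the floor, the same medians were -0.04, -0.03, 0.00 and -0.01. The brightest bin ran from 7.98 to 14.51. No pericentromeric pseudogene read above 10.96 on any array, whereas coding genes of the arms reached 14.32. Signal is therefore matched only loosely in the bin with the widest gap. No test was run on these class differences, since genes of an array are not replicates of the condition.

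**Figure D2:**
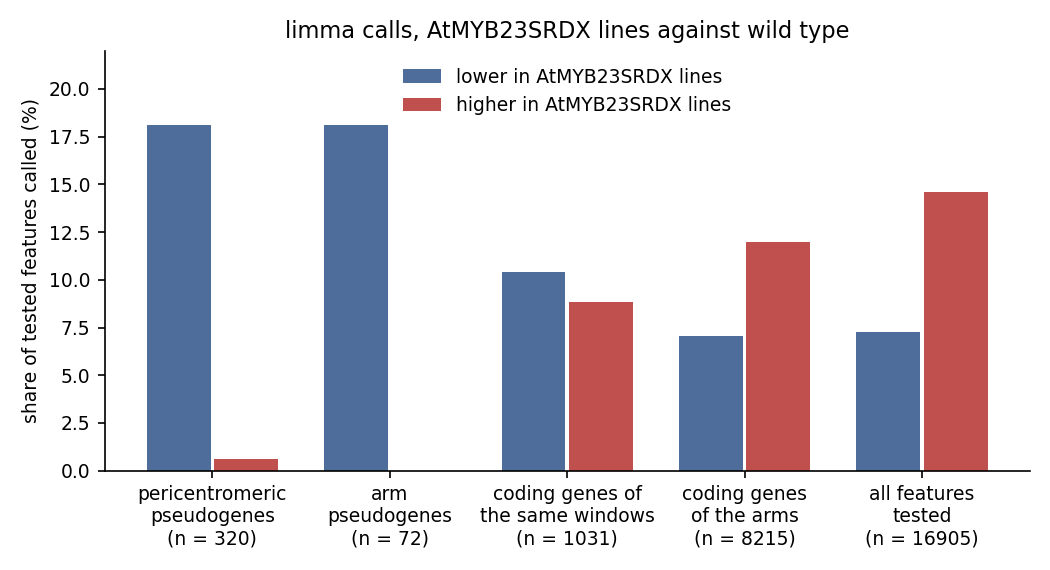
Share of tested features called lower (left bar) and higher (right bar) in the AtMYB23SRDX lines than in wild type by limma at an adjusted p under 0.05, in 4 gene classes and over all features. Both pseudogene classes stand at 18.1% lower, with 0.625% higher around the centromeres.

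**Figure D3:**
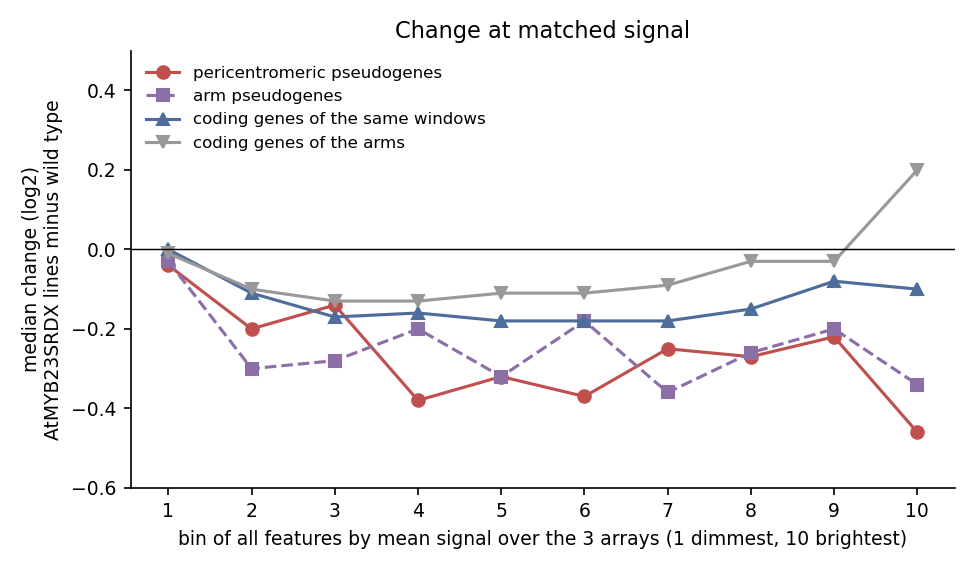
Median log2 change of the AtMYB23SRDX lines from wild type in each of 10 bins of all features by mean signal, for 4 gene classes. Both pseudogene classes lie under the coding genes of the arms in all 10 bins, and cross each other.

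The greatest fall was that of AT4G03840 on chromosome 4. It read 7.72 in line 41 and 7.47 in line 45, against 9.41 in wild type, a 3.54-fold fall (log2 change -1.82 ± 0.24 SE, limma's adjusted p = 0.00161, with 2 arrays of lines and 1 of wild type). Both lines lay far below wild type and within 0.25 of each other. On the same chromosome AT4G06684 read 8.99 and 9.19 in the lines, against 10.60 in wild type (log2 change -1.51 ± 0.24, adjusted p = 0.00389 by limma). AT4G03720, a short annotation of 390 bases, read 6.97 and 7.03 in the lines, against 8.39 in wild type, a 2.62-fold fall. These 3 loci were well above the dim level in each sample, so their falls are measured on both sides.

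On chromosome 2, AT2G04670 read 8.65 in line 41 and 9.06 in line 45, against 10.27 in wild type (log2 change -1.42 ± 0.26, adjusted p = 0.00794 by limma). AT2G10140 read 6.41 and 6.28 in the lines, against 7.73 in wild type, a 2.60-fold fall. On chromosome 3, AT3G31970 read 8.61 and 8.80 in the lines, against 10.07 in wild type, a 2.58-fold fall. In each of the 3 genes the lower of the line values and the higher one were closer to each other than either was to wild type.

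Some falls ended in the dim range, where a fold is a lower bound set at the dim level. AT5G35057 on chromosome 5 read 5.46 in both lines, against 6.87 in wild type, a fall of at least 2.35-fold. AT3G42710 read 5.54 and 5.73 in the lines, against 7.0 in wild type, a fall of at least 2.57-fold. Both lay above the dim level in wild type with the mean of the lines under it, so that a call in these genes could only be a fall. In AT3G42710 that mean was 5.63, just under the level, and line 45 lay above it. These 8 genes had the greatest falls among the 58, and with dim genes kept in the fit and the floor retained their adjusted p by limma was 0.105 to 0.145. Beyond them AT2G06902 and AT3G30620 were at least 2-fold lower in both lines, with log2 changes of -1.34 and -1.06. AT3G30655 and AT5G34990 were so as measured, but ended in the dim range in the lines, and as bounds their falls were at least 1.91-fold and 2.15-fold.

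Both genes that rose were bright enough to be measured in wild type as well. AT2G07080 on chromosome 2 read 8.81 in line 41 and 8.95 in line 45, against 7.72 in wild type, a 2.23-fold rise (log2 change 1.16 ± 0.23, adjusted p = 0.0106 by limma). AT3G29730 read 6.76 and 6.79 in the lines, against 5.99 in wild type, a 1.72-fold rise (0.78 ± 0.21, adjusted p = 0.0322 by limma). The nearest coding gene on the array beside AT3G29730, AT3G29720, had a change of -0.02, and that beside AT2G07080, AT2G07110, lay under the floor in all 3 arrays and gives no change.

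The brightest loci of the set also stood lower in the lines. AT2G12420 read 10.25 and 10.16 in the lines, against 10.66 in wild type (log2 change -0.45 ± 0.23, adjusted p = 0.216 by limma), and AT4G07830 read 9.45 and 9.53, against 9.90 (-0.41, adjusted p = 0.255). AT3G43864, the brightest in wild type, read 10.18 and 9.88 in the lines, against 10.96 in wild type, and fell 1.91-fold (adjusted p = 0.0334 by limma). AT4G07580 read 9.27 and 9.47 in the lines, against 10.44 in wild type, and fell 2.11-fold (adjusted p = 0.0166 by limma). AT3G45550 read 9.58 and 9.996 in the lines, against 10.66 in wild type, and missed the threshold (-0.87 ± 0.27, adjusted p = 0.0517). After quantile normalization, which gives every array the same upper end, AT2G12420 stood at -1.67, AT4G07830 at -1.31 and AT3G45550 at -2.07, and all 3 were called.

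**Figure D4:**
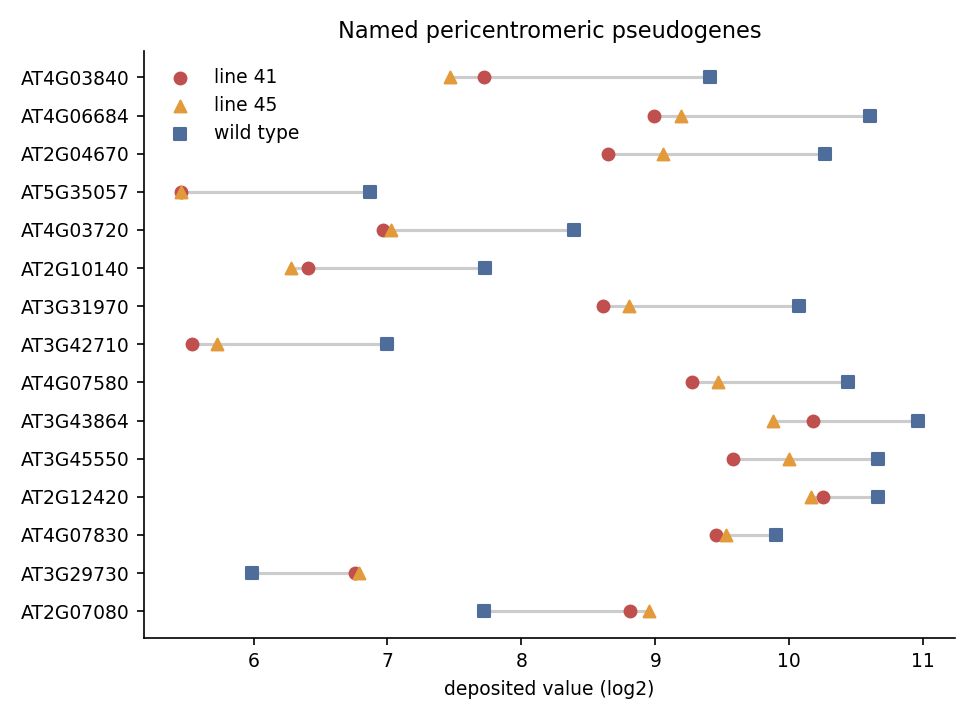
Deposited values, read as log2, of 15 pericentromeric pseudogenes in line 41, line 45 and wild type. Genes are ordered from the greatest fall at the top to the greatest rise at the bottom, with a grey line over the range of the 3 arrays. Wild type is the highest point in 13 genes and the lowest in AT3G29730 and AT2G07080.

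Line 41 and line 45 gave much the same values for these loci. Pearson's r across the 701 genes, which share the 3 arrays and are given as a description, was 0.979 between the lines, 0.954 between line 41 and wild type and 0.951 between line 45 and wild type. Across all features it was 0.981, 0.868 and 0.888. The difference between line 41 and line 45 had a median of -0.02 and an SD of 0.22 in the set, against 0.00 and 0.27 over all features. The gene AT5G35310 alone was at least 2-fold apart, with 8.80 in line 41 and 9.85 in line 45, around a wild-type value of 9.34. AT3G43650 read 7.53 in line 41 and 6.58 in line 45, against 7.13 in wild type. AT4G02490 read 6.46 and 7.28, against 6.57 in wild type. In these 3 genes the lines lay on opposite sides of wild type, and none was called by limma over both lines.

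The lower signal in the lines was spread over all 5 chromosomes. The median change was -0.19 for 117 genes on chromosome 1, -0.21 for 186 on chromosome 2, -0.20 for 126 on chromosome 3, -0.23 for 155 on chromosome 4 and -0.18 for 117 on chromosome 5. Coding genes of the same windows had medians of -0.04, -0.14, -0.15, -0.09 and -0.15 in that order. The share of tested genes that fell was 10.2% on chromosome 1 (5 of 49), 15.3% on chromosome 2 (13 of 85) and 22.1% on chromosome 3 (15 of 68). It was 24.6% on chromosome 4 (17 of 69) and 16.3% on chromosome 5 (8 of 49). Over all tested features 7.28% fell, and over coding genes of the windows 10.4%, so chromosome 1 lay near the latter. Differences between chromosomes were not tested.

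Medians were similar along the windows. Genes within 1 Mb of a window's middle had a median change of -0.23 (267 genes), those from 1 to 2 Mb -0.20 (278 genes) and those in the outermost Mb -0.15 (156 genes). Just outside the windows, in the first Mb, 48 pseudogenes had a median of -0.22, and 139 further out had -0.21. Falls were called in 19.4% (26 of 134) and 15.7% (19 of 121) of tested genes in the inner zones and in 13 of 65 in the outermost Mb. Outside the windows they were called in 23.8% (5 of 21) and 15.7% (8 of 51), where 7.28% of all tested features fell. In 30 bins of 1 Mb, 6 on each chromosome, all 30 medians were under 0, from -0.45 in a bin of 8 genes to -0.05. The median was itself under 0 over all features, at -0.06, and over coding genes of the windows, at -0.11. The bins with the smallest falls lay near those medians. Bins held 6 to 52 genes.

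**Figure D5:**
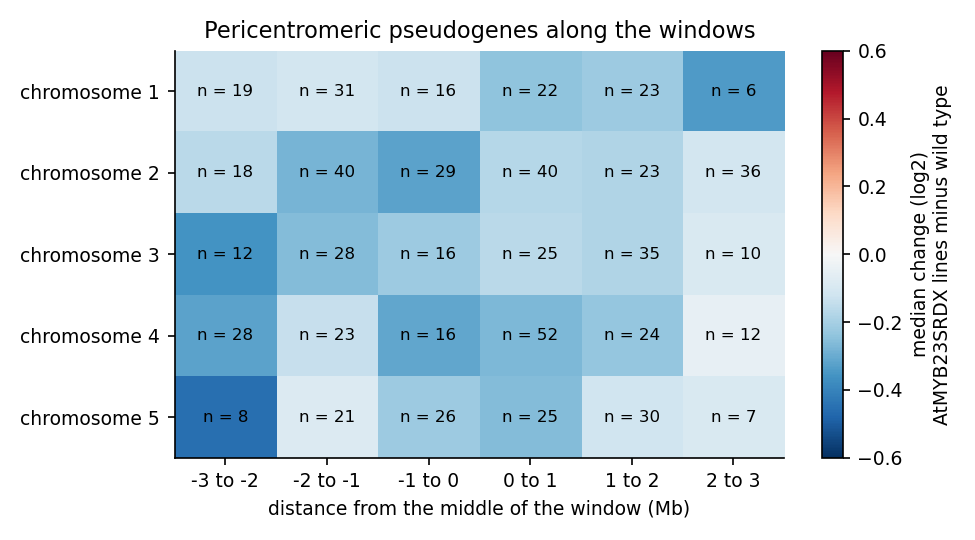
Median log2 change of the AtMYB23SRDX lines from wild type in bins of 1 Mb along the window of each chromosome, with the number of pseudogenes in each bin. Every bin has a median under 0, between -0.45 and -0.05, and both extremes lie in bins at the edge of a window. The median over all features is -0.06.

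Neighbouring loci of the set showed little likeness in their change. Across 141 pairs of tested pseudogenes that follow each other on the array's list of the set, Pearson's r of the change was -0.06, a description over pairs that share genes. Both members had fallen in 4 of these pairs, AT2G11210 with AT2G11220, AT3G42716 with AT3G42720, AT4G03780 with AT4G03790 and AT5G29034 with AT5G29037, while in 41 pairs 1 of the 2 had. The coding genes nearest to the 58 falls, 52 in all and a median of 8346 bases away, had a median change of -0.20. The nearest coding genes of tested pseudogenes that did not fall had a median of -0.12. Of the 52 neighbours 26 were tested, and 4 of these fell, AT3G42990, AT3G43550, AT3G42723 and AT3G30580, all on chromosome 3. Among the nearest coding genes of tested pseudogenes that did not fall, 10 of 105 fell, and 107 of 1031 (10.4%) of all coding genes in the windows did. A single neighbour rose, AT5G35160 (log2 change 2.73 ± 0.32), beside AT5G35145.

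By gene length the medians lay close together. The set is annotated with a median length of 2320 bases, against 2865 for arm pseudogenes and 1750 for coding genes of the windows. Over 4 equal classes by length, up to 1506, 2320, 3485 and 10283 bases, the median change was -0.17, -0.21, -0.27 and -0.16, and 9 of 74, 15 of 79, 17 of 89 and 17 of 78 tested genes fell. Ranked by the wild-type value, 4 equal classes had median changes of -0.03, -0.22, -0.38 and -0.37. Such a ranking leans toward falls at the bright end. Ranked by the mean of wild type and the lines, with both weighing the same, the medians were -0.05, -0.21, -0.37 and -0.28.

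The 381 genes under the dim filter were not tested. Their median change was -0.14, from -1.53 to 0.38, and 28 lay at the floor in all 3 arrays. Of the 381 genes 241 were lower in both lines, where 47.7% of all features were. The share among other dim features was not computed. AT5G27480 read 4.94 and 4.98 in the lines, against 6.49 in wild type, and AT3G43730 read 4.97 and 5.06, against 6.35. These were the only untested genes of the set at least 2-fold lower in both lines as measured, and with their dim side raised to 5.64 the falls were at least 1.80-fold and 1.64-fold. A single gene of the set, AT3G42806, had 2 features, with changes of -0.06 and -0.38 in line 41 and -0.02 and -0.18 in line 45. Separately annotated as transcribed pseudogenes, 37 other genes of the windows had a median change of -0.20, and 21 of them were bright enough to be tested. By limma 5 of these 21 fell and 1 rose, where 7.28% of all tested features fell and 14.6% rose.

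Genes that act in silencing of such loci could hardly be followed. A list of 61 genes for DNA methylation, histone modification, small RNAs and chromatin assembly was fixed, and 4 were paired with a feature. By limma none of the 4 passed, and none had an unadjusted p under 0.05. DME, a DNA glycosylase that removes methylated cytosine, had a change of 0.24 (6.23 and 6.37 in the lines, 6.06 in wild type), and LDL2, a relative of the histone demethylase LSD1, -0.40 (7.37 and 7.49, 7.84 in wild type). HTR12, the centromeric histone H3 variant, stood at -0.17 (5.76 and 5.99, 6.04 in wild type) and DDL, which acts in small RNA processing, at 0.18 (8.14 and 8.45, 8.12 in wild type). Their median of 0.00 lay beside -0.04 over all tested features. The factors DDM1, MET1 and the Pol IV and Pol V subunits were not among those paired here.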

How the data were processed

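The deposited table gives, for each sample, a log2 value of each of 28785 features. The sources used here name neither the log base nor the normalization, the background correction or the summary over probes that the authors applied. Values ran from 4.04 to 14.8 and were read as log2; with another base, folds would change and orders would not. Column medians differed by less than 0.1, so nothing was rescaled. For arrays, the number of samples limits precision. GEO's platform annotation paired 17579 features with a gene, and the RefSeq table of TAIR10.1, used only to place genes and give their biotype, held 17491 of these. The 11206 unpaired features stayed in the fit.

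Values were floored at 4.68 (5th percentile), dim features (mean under 5.64, the 40th percentile) were set aside, and the brightest feature stood for a gene. Tests used limma 3.58.1 under R 4.3.3, with a variance trend in eBayes, two-sided p-values and Benjamini-Hochberg adjustment. The fit left 1 residual degree of freedom, from the lines, wild type was assumed to vary like them, and p-values measure only the spread between these samples. In a simulation of that comparison, in which 200 of 16905 features were changed, limma found 61.0% of log2 changes of 1 (4 false calls) and 100% of changes of 2 (8 false calls). The simulated features of similar signal shared 1 spread, so limma's prior degrees of freedom were infinite there, against 6.77 in the data, and recovery in the data may be lower.

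Matched differences are medians within 10 bins of mean signal, averaged with weights by the number of pericentromeric pseudogenes. The rule for named genes took up to 8 falls and 8 rises by size, the 5 brightest, the 3 with lines furthest apart and up to 6 silencing genes; others were singled out after their values were seen. The gene set, lists and tests were chosen with earlier results of these data known. Alternatives were other scalings, filters, floors, variance models, feature rules, windows and matching, and leaving out a line; removing filter and floor together was added after seeing the data. No grouping by element family could be made.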

Additional observations from a re-analysis of the deposited data

How the results depend on the processing

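No paired analysis was possible because the groups share no replicate number. The falls of the pericentromeric pseudogenes depended on the scaling in number and not in direction: 58 (18.1% of those tested, against 7.28% of all features) fell in the values as deposited, 62 (19.4% against 7.7%) after median centring, 77 (24.1% against 10.2%) after centring on the 75th percentile and 96 (29.9% against 15.8%) after quantile normalization, where 2667 of all features fell instead of 1231, and all 58 were again called in each of these scalings. Of all calls 66.7% were rises, against 49.4% after quantile normalization. With no dim filter and the floor kept, limma called 0 features higher and 0 lower. There 181 of the 701 pseudogenes were lower at an unadjusted p under 0.05. Of all 28124 features 7167 had such a p in either direction, and how many of these were lower was not computed. Without filter and floor, added after seeing the data, limma called 1894 features (6.73%) and 96 of 701 pseudogenes (13.7%) lower. A filter at the 60th percentile left 182 tested and 38 falls (20.9%, against 8.33% of all features). Windows narrowed by 1 Mb left 255 tested, 45 falls and 1 rise, in the fit where 7.28% of all features fell. The median change of -0.20 became -0.17 after quantile normalization, -0.14 after median centring, -0.27 after centring on the 75th percentile and -0.11 with a floor at the 20th percentile, and it lay 0.11 to 0.15 below that of all features throughout. With 1 line left out, values with no test, it was -0.21 to -0.18, the difference from arm pseudogenes was -0.02 to 0.04, and that from coding genes of the windows -0.11 to -0.10. The difference from coding genes was -0.11 after median centring and when matched by the wild-type value, -0.10 with the higher floor and -0.13 with windows widened by 1 Mb. AT5G35310 stood at 0.05 after median centring, against -0.01, and with 1 line left out at -0.54 to 0.51, AT3G43650 at -0.56 to 0.40 and AT4G02490 at -0.11 to 0.70. The cause of these shifts was not tested.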
